A study of Mus musculus with 412 samples.

Results

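Thoracolumbar (TL) sensory neurons of the mouse colon were compared by 2 genes known from different kinds of afferent, Gfra3 and Piezo2. The neurons were selected on their measured levels of these genes, in TPM, a measure of a transcript's share of a neuron's RNA that is corrected for gene length, among TL neurons with at least 9500 genes above 0. A Gfra3 neuron had at least 10 TPM of Gfra3, and a Piezo2 neuron had under 10 TPM of Gfra3 and at least 10 TPM of Piezo2. Of the 325 neurons in the table, 167 were TL, and 139 of these had 9500 genes or more. They gave 85 Gfra3 neurons and 49 Piezo2 neurons, 134 in all, while 5 had neither gene at 10 TPM.

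The neurons came from healthy C57BL/6J mice. Fast Blue, a retrograde tracer, had been injected into the colon wall 3 to 10 days earlier, so that dorsal root ganglion (DRG) neurons with a fibre in the colon were stained. Ganglia T10-L1 (TL) and L5-S2 (lumbosacral, LS) were dissociated into separate cultures, and stained neurons were picked by hand and sequenced 1 by 1 by Smart-seq2 on 6 library plates. Neither a transgene nor a treatment distinguished the neurons. The labels name no animal or culture for a neuron, and the TL neurons were therefore treated as 1 sample, with no test between the groups and no p-value.

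GFRα3, the product of Gfra3, is the co-receptor through which the growth factor artemin signals with the receptor kinase Ret, and it is known from peptidergic nociceptors, which carry CGRP and substance P and respond to heat and irritants. Piezo2 encodes a channel opened by stretch of the membrane and is known from touch and visceral mechanoreceptors, many of which have larger cell bodies and myelinated fibres. Colonic afferents of the TL ganglia run in the splanchnic nerves.

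Because the levels of Gfra3 and Piezo2 chose the neurons, they are a description and no finding. Gfra3 ranged from 10.98 to 2849 TPM in the Gfra3 neurons, with a median of 1376, and 38 of the 49 Piezo2 neurons were at 0. Piezo2 ranged from 11.9 to 191 TPM in the Piezo2 neurons, with a median of 78.0. The limits fell in sparse parts of both ranges. The Gfra3 levels nearest to 10 TPM were 6.65 and 10.98 TPM, and among neurons under that limit the nearest Piezo2 levels were 5.86 and 11.9 TPM. The separation was not complete, since 17 of the 85 Gfra3 neurons also had at least 10 TPM of Piezo2 and 68 did not. Piezo2 reached 9.99 TPM among the 68 and began at 17.1 TPM among the 17. The Gfra3 median was 404 TPM in the 17 and 1530 TPM in the 68.

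**Figure D1:**
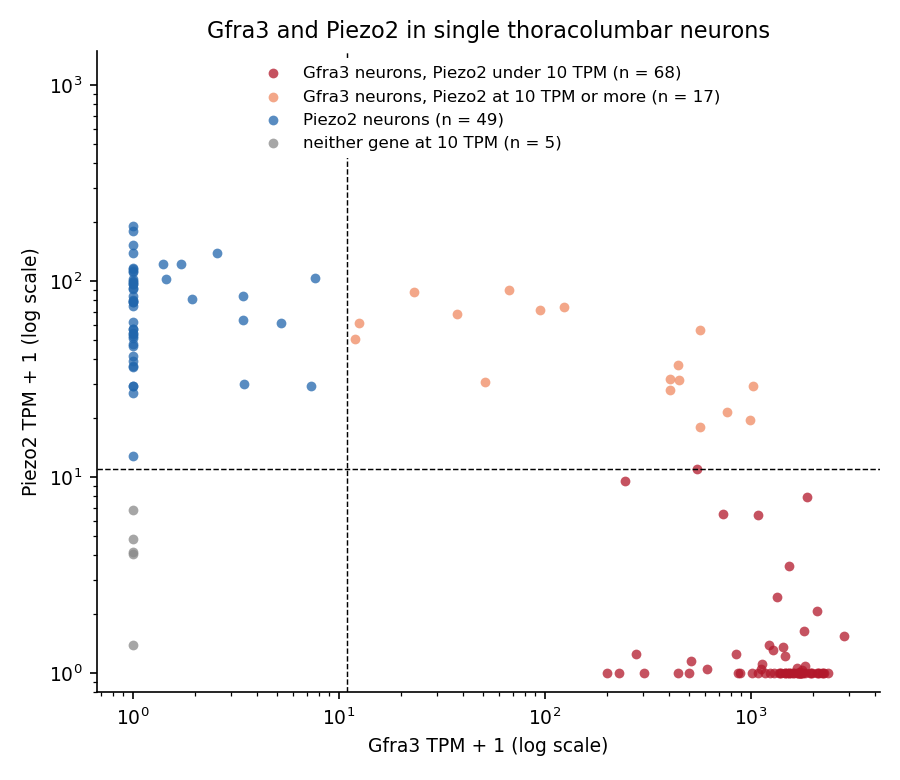
Each point is 1 of the 139 TL neurons with 9500 genes or more, placed by its Gfra3 level (x axis, TPM + 1, log scale) and its Piezo2 level (y axis, TPM + 1, log scale), with dashed lines at 10 TPM. The 68 Gfra3 neurons low in Piezo2 lie at the lower right, the 49 Piezo2 neurons at the upper left, and the 17 with both genes between them.

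Depth was close in both groups. The recovered reads on genes had a median of 2887850 in the Gfra3 neurons (562066 to 10499500) and of 2866920 in the Piezo2 neurons (1186480 to 7207850), and the genes above 0 had medians of 13882 and 13775. The summed level of 10 pan-neuronal markers was also close, with medians of 15339 and 15514 TPM. All plates but the first held both groups. Plate 1 gave 0 Gfra3 and 3 Piezo2 neurons, and plates 2 to 6 gave 14 and 7, 10 and 9, 27 and 5, 14 and 13, and 20 and 12. A difference was called when the log2 ratio of mean TPM + 1, Gfra3 over Piezo2 neurons, was at least 1 (2-fold) in size and all of plates 2 to 6 had its sign. Plates are library batches and not animals. Shares of neurons are of those at 10 TPM or more, and 95% intervals given beside them are exact (Clopper-Pearson) and account for the number of neurons counted, not for differences between animals or for reads copied by PCR.

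Of 9647 genes whose group means averaged at least 5 TPM, 366 (3.79%) were called higher in the Gfra3 neurons and 315 (3.27%) higher in the Piezo2 neurons, and the median log2 ratio of all genes tested was -0.01. Without the request for every plate, 889 genes were past 2-fold, 408 of them higher in the Gfra3 neurons and 481 in the Piezo2 neurons. The genes with the largest separation on the log scale included Gal, Tac1, Trpv1 and Chrnb4 on the Gfra3 side. On the Piezo2 side they included Thy1, Tspan12, Kcna1 and Asic3. The counts of the gene lists stand beside these 2 shares of all genes.

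**Figure D2:**
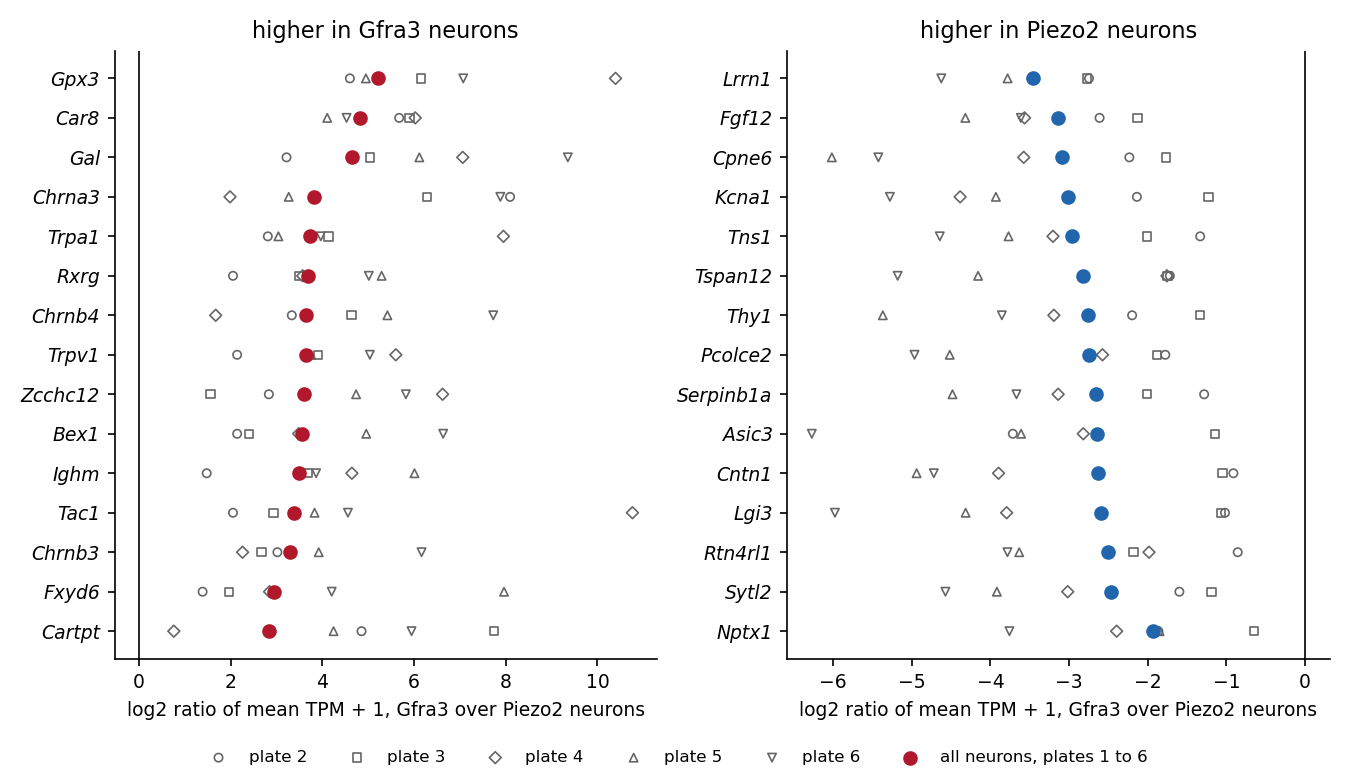
Log2 ratio of mean TPM + 1, Gfra3 over Piezo2 neurons (x axis), for the 15 called genes in each direction with the largest separation in mean log2(TPM + 1). Filled points are all 134 neurons and open symbols are plates 2 to 6; every plate lies on the same side of 0, but plates differ by several log2 units for most genes.

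Among 8 receptors for neurotrophins and GDNF family ligands, Ret was called higher in the Gfra3 neurons and Gfra1 in the Piezo2 neurons. Ret, the kinase that signals for all GFRα co-receptors (chromosome 6, 118151745 to 118197718, GRCm38), had a lowest, median and highest level of 0.0691, 294 and 1048 TPM in the Gfra3 neurons and of 0, 22.2 and 552 TPM in the Piezo2 neurons, with a log2 ratio of 1.20 (0.56 to 4.44 over plates). Gfra1, the co-receptor for GDNF itself, had means of 8.71 and 38.7 TPM and a log2 ratio of -2.03. It was at 10 TPM or more in 18 of 85 and 31 of 49 neurons. Ntrk3, the receptor for neurotrophin 3, was at 10 TPM or more in 5 of 85 and 14 of 49 neurons, and its direction differed among plates (-4.25 to 0.36).

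Peptide precursors were called in 1 direction. Of 17 precursors 8 could be tested, 5 of them (Calca, Tac1, Gal, Adcyap1 and Cartpt) were called higher in the Gfra3 neurons and 0 in the Piezo2 neurons, and the median log2 ratio of the 8 was 1.61. Tac1 encodes substance P. It reached 2781 TPM at the median of the Gfra3 neurons (0 to 6053) and 6.49 TPM at that of the Piezo2 neurons (0 to 2185), a log2 ratio of 3.38. The ranges overlapped, since 23 Piezo2 neurons, 46.9% (32.5 to 61.7), were at 10 TPM or more, but 82 Gfra3 neurons, 96.5% (90.0 to 99.3), were. Gal, the precursor of galanin, was at 0, 4711 and 19960.3 TPM (lowest, median and highest) against 0, 1.90 and 2885 TPM. Its mean was 24.9-fold higher on the TPM + 1 scale, and its plate ratios ran from 3.22 to 9.36 in log2. With neurons under 9500 genes included, its log2 ratio fell from 4.64 to 2.94.

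Calca, which encodes CGRP, was the most abundant of these transcripts and was present in both groups. Its level ran from 2746 to 43728 TPM in the Gfra3 neurons (median 24845) and from 0 to 41879.9 TPM in the Piezo2 neurons (median 5538). The difference was therefore one of amount, with a log2 ratio of 1.33 and 42 of 49 Piezo2 neurons at 10 TPM or more. Calcb, the gene of the second CGRP, missed the 2-fold limit at 0.88. Adcyap1, which encodes PACAP, was at 10 TPM or more in all 85 Gfra3 neurons (lower bound of the interval 95.8%) and in 28 of 49 Piezo2 neurons, with a log2 ratio of 1.90. Cartpt, the precursor of CART peptides, was also called (2.84), but its plate ratios spread from 0.76 to 7.74. Nppb, Sst and Nts were each in few neurons. At 10 TPM or more they were in 0, 0 and 2 Gfra3 neurons and in 4, 1 and 1 Piezo2 neurons. Sst passed the filter on low values through its single Piezo2 neuron and was not called (-4.18). Of the 8 dense core vesicle proteins, which package and cut such peptides, Pam, the amidating enzyme, was called higher in the Gfra3 neurons (1.57) and Cpe, a carboxypeptidase, higher in the Piezo2 neurons (-1.17).

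Of the channels for heat and irritants, 2 were higher in the Gfra3 neurons. Trpv1, the capsaicin and heat channel (chromosome 11, 73234292 to 73261242), was at 0.114, 859 and 2058 TPM in the Gfra3 neurons and at 0, 4.44 and 660.4 TPM in the Piezo2 neurons, a log2 ratio of 3.64. It was at 10 TPM or more in 82 of 85 and 20 of 49 neurons. Trpa1, the channel for mustard oil and other irritants, was at 0, 451 and 1695 TPM against 0, 0.710 and 355 TPM, a log2 ratio of 3.73. Both channels thus had a minority of high Piezo2 neurons and few low Gfra3 neurons. They were together in 78 of the 85 Gfra3 neurons and in 13 of the 49 Piezo2 neurons, and 22 Piezo2 neurons had neither at 10 TPM. The cold channel gene Trpm8 was called higher in the Piezo2 neurons (-1.52) at low means of 2.25 and 8.34 TPM, and it was at 10 TPM or more in only 10 of 49. Of the 14 TRP channels 9 were tested and the other 6 of these 9, among them Trpv2 (0.13) and Trpm3 (0.45), were not called.

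Of the acid sensors, Asic3 was higher in the Piezo2 neurons. Asic3, a channel gated by protons and a known mediator of mechanical and acid sensitivity in gut afferents, was at 0, 0 and 869 TPM in the Gfra3 neurons and at 0, 89.8 and 1037 TPM in the Piezo2 neurons, a log2 ratio of -2.64. Many neurons had none of it, with 63 of 85 and 19 of 49 neurons at 0. Asic2 (-0.67) was tested and not called.

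Besides Piezo2 itself, 12 genes of channels and proteins proposed to sense stretch were examined, and 8 could be tested. Kcnk2, which encodes the stretch and heat sensitive potassium channel TREK-1, was called higher in the Gfra3 neurons, where it lay at 0, 62.9 and 169.7 TPM against 0, 0.105 and 16.1 TPM. Its log2 ratio was 4.50 and 74 of 85 against 3 of 49 neurons were at 10 TPM or more. Tmem150c was called at 1.01, barely past the limit, and fell to 0.90 when means of log values were compared. Kcnk4, the gene of the related channel TRAAK, stood just under the limit at 0.87. Piezo1, the close relative of Piezo2, was nearly absent, with means of 0.169 and 0.187 TPM and 0 neurons at 10 TPM in both groups.

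**Figure D3:**
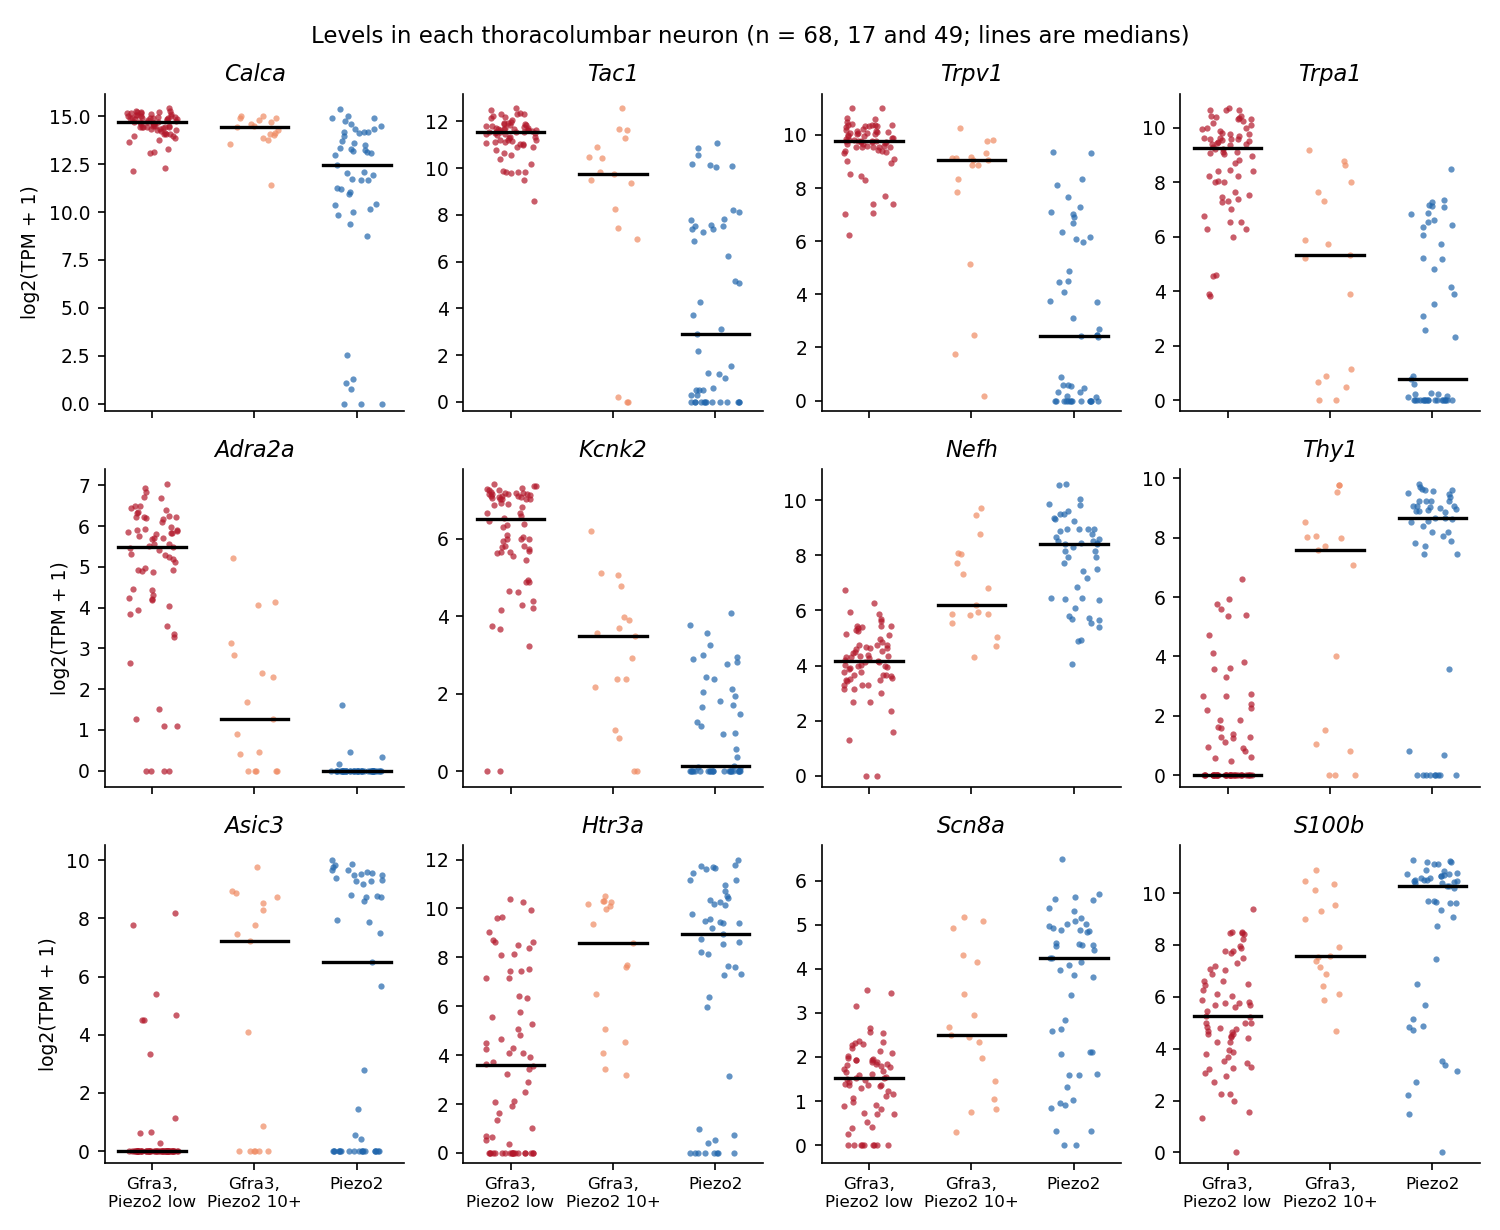
Level of 12 genes in each neuron (y axis, log2(TPM + 1)) in the 68 Gfra3 neurons low in Piezo2, the 17 Gfra3 neurons with at least 10 TPM of Piezo2 and the 49 Piezo2 neurons; points are neurons and black lines are medians. Tac1, Trpv1, Trpa1, Adra2a and Kcnk2 are highest at the left, Nefh, Thy1, Scn8a and S100b highest at the right, and several genes fall into high and low neurons within the Piezo2 group.

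Of the 15 genes named for the largest separation on the Gfra3 side, 3 were subunits of nicotinic acetylcholine receptors. Chrnb4 was at 0, 252 and 658 TPM in the Gfra3 neurons and at 10 TPM or more in 9 of 49 Piezo2 neurons, a log2 ratio of 3.65. Chrna3 (log2 3.82) and Chrnb3 (log2 3.29) had medians of 170.3 and 155 TPM in the Gfra3 neurons and of 0 in the Piezo2 neurons. Chrna3 and Chrnb4 lie side by side on chromosome 9, at 55010111 to 55026562 and 55028154 to 55048779. The remainder had varied roles. Gpx3, a secreted glutathione peroxidase, had medians of 2224 and 4.79 TPM and the largest log2 ratio of the 15 (5.21). Car8, a protein related to carbonic anhydrases, was at 10 TPM or more in 73 of 85 and 2 of 49 neurons (4.81). Bex1 (3.55), Fxyd6, a regulator of the sodium pump (2.95), and Zcchc12 (3.59) were also among them. Ighm, the heavy chain gene of immunoglobulin M, which is known from B cells, had means of 235 and 20.0 TPM.

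Voltage-gated sodium channels were called in 1 direction. Of 9 tested genes, 0 were called higher in the Gfra3 neurons and 4 (among them Scn1a, Scn8a and Scn4b) higher in the Piezo2 neurons. Scn8a encodes the channel Nav1.6 of nodes of Ranvier. It was at 0, 2.08 and 34.9 TPM in the Gfra3 neurons and at 0, 17.9 and 88.4 TPM in the Piezo2 neurons, a log2 ratio of -2.07. The auxiliary subunit gene Scn4b was at 10 TPM or more in 3 of 85 and 28 of 49 neurons (-3.37). Scn1a (-3.02) had a mean of 14.0 TPM in the Piezo2 neurons and of 0.846 TPM in the Gfra3 neurons. The nociceptor channel genes Scn9a, Scn10a and Scn11a were abundant in both groups and were not called (-0.30, -0.75 and -0.72). Scn10a, for example, had means of 213 and 358 TPM.

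Potassium channels were called in both directions. Of 22 tested voltage-gated alpha subunits, 2 (Kcnc2 and Kcnh6) were higher in the Gfra3 neurons and 7 (among them Kcna1, Kcna2, Kcnd1, Kcnd3, Kcnh7 and Kcns1) in the Piezo2 neurons. Kcna1, a low-threshold channel known from myelinated axons, was at 0, 0 and 181 TPM against 0, 17.5 and 238 TPM, a log2 ratio of -3.02. Kcnd1, which carries A-type current, was present in nearly every neuron, and its means of 53.6 and 140.2 TPM differed in amount (-1.37). Kcnc2 had means of 72.1 and 17.5 TPM (1.98). The K2P leak channels were also called in both directions. Beside Kcnk2, Kcnk3 (TASK-1) was higher in the Gfra3 neurons, at a median of 86.1 against 0 TPM (3.90), while Kcnk1 (TWIK-1, -3.30) and Kcnk18 (TRESK, -2.42) were higher in the Piezo2 neurons. Kcnk18 was at 10 TPM or more in 17 of 49 of them. Of 9 tested calcium channel genes, Cacna1e (1.58) and Cacna1c (1.01, near the limit) were called higher in the Gfra3 neurons and Cacnb4 (-1.26) in the Piezo2 neurons.

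Serotonin and purine receptors were called only in the Piezo2 direction within these lists. Of 7 tested serotonin receptors, 4 (Htr1d, Htr2a, Htr3a and Htr3b) were called, and the median log2 ratio was -2.06. Htr3a and Htr3b encode the subunits of the ion channel 5-HT3, through which gut enterochromaffin cells signal to nerves. Htr3a was at 0, 18.0 and 1458 TPM in the Gfra3 neurons and at 0, 499.6 and 4076 TPM in the Piezo2 neurons, a log2 ratio of -2.06. It was not confined to the Piezo2 neurons, since 50 of 85 Gfra3 neurons were at 10 TPM or more. Htr3b was more unequal in its share, with 17 of 85 and 32 of 49 (-2.41). Htr1d, an inhibitory receptor and target of triptans, was at 10 TPM or more in 2 of 85 and 17 of 49 neurons (-3.89). Of 5 tested purine receptors, P2ry1 (-3.52) and P2ry2 (-1.85) were called, with means of 30.4 and 14.1 TPM in the Piezo2 neurons and of 1.73 and 3.18 TPM in the Gfra3 neurons. P2rx3, the ATP channel of sensory nerves, had means of 85.2 and 243 TPM (-1.50) and was not called, because 1 plate stood at 0.02.

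Within the list of inhibitory receptors, which damp neurons, calls were made only in the Gfra3 direction. Of 11 tested, 7 (Oprm1, Oprl1, Sstr2, Sstr4, Adra2a, Cnr1 and Npy1r) were called higher in the Gfra3 neurons and 0 in the Piezo2 neurons. The median log2 ratio of the 11 was 1.32. Htr1d, an inhibitory receptor counted with the serotonin receptors, was called higher in the Piezo2 neurons (-3.89). Sstr4 (1.11) was near the limit and fell to 0.89 with a 20 TPM threshold for the marker genes. Oprm1, the μ opioid receptor, was at 0, 54.0 and 221 TPM against 0, 15.0 and 95.9 TPM (1.32), and so was present in many neurons of both groups. Sstr2, a somatostatin receptor, was at 10 TPM or more in 63 of 85 and 2 of 49 neurons (4.45). Adra2a, the α2A adrenoceptor (chromosome 19, 54044151 to 54048982), was at 0, 33.5 and 131 TPM in the Gfra3 neurons, whereas its highest level in the Piezo2 neurons was 2.06 TPM and 45 of 49 were at 0. A count of 0 in 49 at 10 TPM has an upper interval bound of 7.25%. Cnr1, the cannabinoid receptor CB1, had a log2 ratio of 1.74 with close plates (1.54 to 2.11), and Npy1r had one of 3.37 with wide plates (1.77 to 6.80). Galr1, a receptor for galanin, was not called (-0.48).

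Receptors for inflammatory mediators were called in both directions. Of 21 tested, 3 were called higher in the Gfra3 neurons (Bdkrb2, Il13ra1 and Mrgprx1) and 2 in the Piezo2 neurons (F2r and Tnfrsf1a). Bdkrb2, the bradykinin B2 receptor, had means of 15.3 and 2.93 TPM (2.06). Mrgprx1, an itch receptor of the Mas-related family, was at 10 TPM or more in 54 of 85 and 5 of 49 neurons (1.93); it belongs to a multigene family and reads shared with its relatives cannot be told apart. F2r, the thrombin receptor PAR1, was at 0, 0 and 402 TPM against 0, 6.53 and 644 TPM (-2.45). The related F2rl2 (PAR3) was abundant in both groups, with means of 198 and 263 TPM, and was not called. The glutamate receptor genes Gria1 (1.31) and Grin3a (1.20) and the GABA-A subunit gene Gabra3 (1.20) were called higher in the Gfra3 neurons, of 7 and 6 tested in their lists. The vesicular glutamate transporter Slc17a6 was even, at means of 218 and 205 TPM (0.09).

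**Figure D4:**
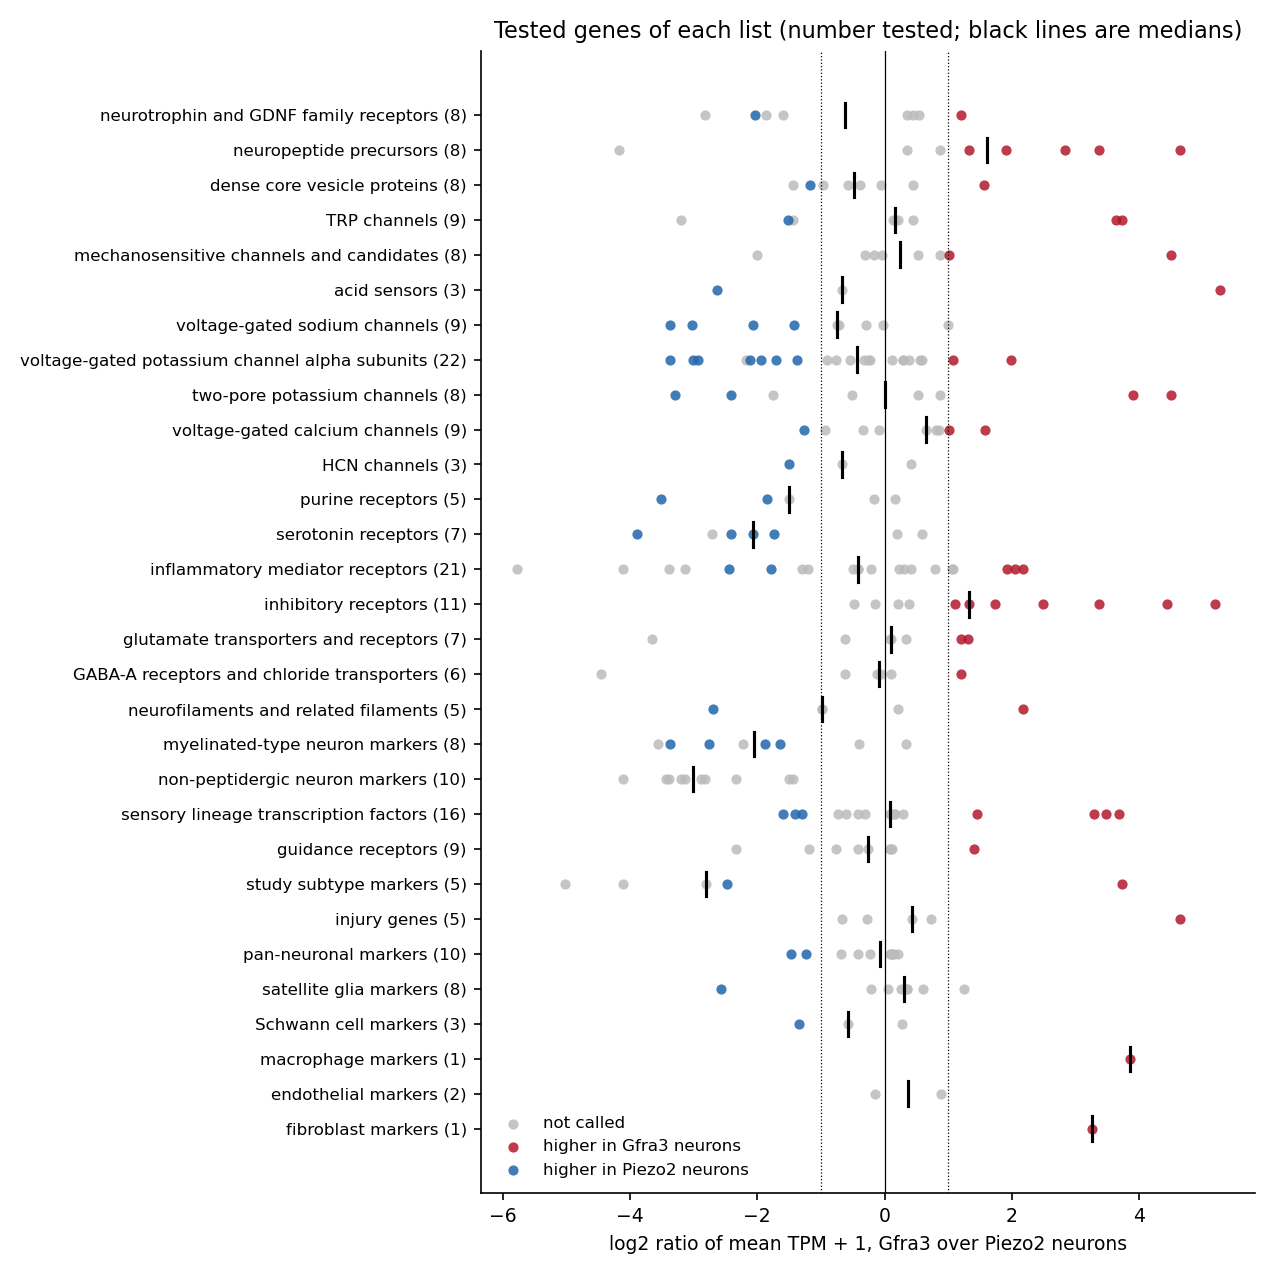
Log2 ratio of mean TPM + 1, Gfra3 over Piezo2 neurons (x axis), for each tested gene of the 30 gene lists (y axis, with the number tested); black lines are list medians and dotted lines the 2-fold limits. Red and blue genes were called, grey ones were not; the peptide and inhibitory receptor lists hold only red calls, and the sodium channel, serotonin and myelinated-type lists hold only blue ones.

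Some markers known from large, myelinated neurons were called in the Piezo2 direction. Of 8 tested markers of the myelinated type, 4 were called higher there (Ldhb, Syt2, Thy1 and Scn4b) and 0 in the Gfra3 neurons. The median log2 ratio of the 8 was -2.05. The study judges that neurofilament markers in colonic neurons are unlikely to go with much myelination, since mouse visceral afferents conduct slowly. Myelination was not measured here. Nefh, the heavy neurofilament (chromosome 11, 4938754 to 4948064), was at 0, 20.8 and 829 TPM in the Gfra3 neurons and at 15.5, 337 and 1539 TPM in the Piezo2 neurons, a log2 ratio of -2.70. The share of neurons with it depended on the limit, at 71 of 85 and 49 of 49 neurons at 10 TPM or more, and 21.2% and 87.8% at 50 TPM or more. Nefm and Nefl, the medium and light chains, both had ratios of -0.98, just short of the limit, while Ina, the gene of α-internexin, was higher in the Gfra3 neurons (2.18) and peripherin (Prph) was even (0.21). Thy1, a surface glycoprotein of neurons, was the gene with the largest separation on this side. Its level was 0, 0.775 and 877 TPM in the Gfra3 neurons and 0, 399.5 and 898 TPM in the Piezo2 neurons (-2.76). Pvalb and Spp1, markers of proprioceptors and other large neurons, were at 10 TPM or more in 4 and 7 Piezo2 neurons and in 3 and 11 Gfra3 neurons.

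The other genes with the largest separation on the Piezo2 side had varied roles. Tspan12, a tetraspanin, was at 6.14 to 199 TPM in the Piezo2 neurons, none of which was at 0, and 54 of 85 Gfra3 neurons were at 0 (-2.82). Fgf12, an intracellular factor that binds sodium channels, was at 4.01, 25.0 and 939.7 TPM against 28.9, 254 and 1972 TPM (-3.14), so that every neuron had some. Lrrn1, a leucine-rich repeat protein, had the largest ratio of the 15 (-3.46). Nptx1, a neuronal pentraxin, had medians of 0 and 140.0 TPM (-1.93). The adhesion molecule gene Cntn1 was at 10 TPM or more in 7 of 85 and 32 of 49 neurons (-2.63), and the focal adhesion gene Tns1 in 9 and 42 (-2.96). Ratios of the remaining 6, namely Cpne6 (-3.09), Pcolce2 (-2.75), Lgi3 (-2.59), Rtn4rl1 (-2.51), Sytl2 (-2.47) and Serpinb1a (-2.66), lay in the same range.

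Within the Piezo2 group the neurons were not alike. All 10 markers of non-peptidergic neurons were tested and had negative log2 ratios (median -3.01), but 0 were called, because at least 1 plate had the opposite direction for each. Mrgprd, the defining receptor of that class, was at 10 TPM or more in 12 of 49 Piezo2 neurons and 2 of 85 Gfra3 neurons. Its plate ratios ran from -8.63 to 5.39. The request for every plate can miss genes of a kind of neuron that some plates lack. Piezo2 neurons differed by plate in Thy1, for example, which was at 172 TPM or more in all those of plates 2 and 4. Plates 3, 5 and 6 also held Piezo2 neurons at 0 TPM of Thy1. The 7 genes used in the study to mark its subtypes divided the Piezo2 neurons further. Fam19a1, a secreted neuronal factor, was at 10 TPM or more in 25 of 49 (51.0%, 36.3 to 65.6) and was called (-2.48), Cbln2 was in 7 and Trpa1 in 20. Mrgprd and Fam19a1 were together in 1 Piezo2 neuron, 11 had only the former, 24 only the latter and 13 neither. Smr2 was in 3 Piezo2 and 5 Gfra3 neurons, and Hpse and Ntm were at 10 TPM in 0 neurons of both groups. Every Piezo2 neuron had at least 1 of the 7 genes, 32 exactly 1, 16 exactly 2 and 1 exactly 3. Of the Gfra3 neurons, 73 of 85 had exactly 1, 9 had 2 and 3 had 0, and 79 of 85 had Trpa1. Mrgpra3, another Mas-related itch receptor, was at 10 TPM or more in 5 Piezo2 neurons and in 0 Gfra3 neurons. These genes were picked by the study on these neurons, so their counts are not independent evidence.

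Transcription factors of the sensory lineage were called in both directions. Of 16 tested, Etv1 (1.45), Hmx1 (3.30), Irx6 (3.48) and Rxrg (3.68) were higher in the Gfra3 neurons and Pou4f3 (-1.30), Ebf3 (-1.59) and Creb5 (-1.41) in the Piezo2 neurons. Rxrg, a retinoid receptor, had a median of 238 TPM in the Gfra3 neurons and was at 10 TPM or more in 80 of 85 and 17 of 49 neurons. Irx6, a homeobox factor, was at 10 TPM or more in 41 of 85 and 0 of 49 neurons. Factors shared by all DRG neurons were even, with log2 ratios of 0.11 for Isl1 and -0.42 for Pou4f1. Among 9 tested guidance receptors, Plxna3 (1.41) was called higher in the Gfra3 neurons. Of 5 tested injury genes, Gal was called, while Atf3, the transcription factor induced by axon injury, was present in both groups, at means of 210.0 and 334 TPM (-0.67), and was not called. Of 10 pan-neuronal markers, Rbfox3, the gene of NeuN, was higher in the Piezo2 neurons, at 29.1, 81.6 and 222 TPM against 0.255, 13.4 and 125 TPM (-1.46), as was Avil, the gene of advillin (-1.24).

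Markers of other cells were examined because satellite glia can cling to a picked neuron. Before its clustering the study left out neurons with signs of satellite glia, whereas the main comparison here left out none on that ground. The summed level of 10 satellite glia markers had medians of 2498 TPM (77.8 to 44595) in the Gfra3 neurons and 2436 TPM (50.7 to 37098) in the Piezo2 neurons. Within the list only S100b was called, with means of 178 and 1059 TPM (-2.56), while Fabp7 (0.60) and Apoe (0.35) were not. S100b is also known from large sensory neurons. The sum of 6 Schwann cell markers was higher in the Piezo2 neurons (medians of 828 and 1512 TPM), mostly through Pmp22 (means of 911 and 1359 TPM), and of the 3 tested Pllp was called (-1.35), whereas Mag was at means of 0.127 and 0.125 TPM. Without the 10% of neurons highest in satellite glia markers, 387 and 285 genes were called, of which 349 and 256 were among the 366 and 315.

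The sums of macrophage and fibroblast markers were higher in the Gfra3 neurons, with medians of 45.1 against 5.05 TPM (highest 161 and 44.7) and 35.3 against 3.84 TPM (highest 736 and 192). A single gene gave most of each sum in the Gfra3 neurons. C1qb, a complement component, had means of 45.8 and 2.24 TPM (3.85), but C1qc and Tyrobp were at 0 in all 134 neurons, and Csf1r and Ptprc had means under 1 TPM. Dcn, the gene of decorin, had means of 86.2 and 8.06 TPM (3.27), whereas Col1a1, Col3a1 and Pdgfra had means under 1 TPM in both groups. The sum of 8 endothelial markers had medians of 74.5 and 42.7 TPM (highest 156 and 489.7) and came mainly from Egfl7 and Esam, of which neither was called. Pecam1 and Cdh5 had means under 1 TPM. The part of other cells in the differences above was otherwise not tested.

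The 17 Gfra3 neurons with at least 10 TPM of Piezo2 are described without a comparison of Piezo2, which chose them. Asic3 was at 10 TPM or more in 10 of these 17, with a median of 147 TPM, and in 6 of the other 68 Gfra3 neurons. Nefh had medians of 73.0 and 17.1 TPM in the 17 and the 68, and Thy1 of 193 and 0 TPM. For Nefh and Thy1 the median of the 17 lay between those of the 68 and of the Piezo2 neurons. For Asic3 the median of the 17 was above both (0 and 89.8 TPM). The 17 were not alike, since Thy1 ran from 0 to 877 TPM among them, and its median need not describe a typical neuron. Peptides were present, with all 17 at 10 TPM or more for Calca and 14 for Tac1, and 14 also for Trpv1. All 3 Gfra3 neurons under 10 TPM for Tac1 and Trpv1 were among the 17. Trpa1 was at 39.5 TPM at the median of the 17 and at 614 TPM in the other 68, all of which were at 10 TPM or more. Adra2a was at 10 TPM or more in 3 of the 17 and 57 of the 68. Without these 17 neurons, 415 genes were called higher in the Gfra3 neurons and 458 in the Piezo2 neurons. The ratio of Nefh then moved from -2.70 to -4.04, that of Asic3 from -2.64 to -4.91 and that of Thy1 from -2.76 to -5.58.

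The same rule gave 73 Gfra3 and 62 Piezo2 neurons among the LS neurons, which came from other ganglia and a separate culture. They shared no neuron with the TL groups but lay on library plates 2 to 6, which also held TL neurons. With no animal named, whether the segments shared mice is not known. In LS, 339 of 9765 tested genes (3.47%) were called higher in Gfra3 neurons and 428 (4.38%) in Piezo2 neurons. Of the 47 named and listed genes called higher in the TL Gfra3 neurons, 43 had the same sign in LS and 32 were past 2-fold. Of the 51 called higher in the TL Piezo2 neurons, all 51 had the same sign in LS and 41 were past 2-fold. These genes were picked by separation or list, and the same count over all tested genes was not made. The difference between segments was not tested. Tac1 (2.46 in LS), Gal (3.74), Trpv1 (3.11), Nefh (-2.13) and Thy1 (-2.44) were past 2-fold in the direction of TL. The 4 genes with the opposite sign in LS were Cartpt (-0.50), Chrna3 (-1.21), Chrnb4 (-0.04) and Kcnh6 (-0.62). For Cartpt the LS means were 2599 and 3668 TPM in Gfra3 and Piezo2 neurons, against 1484 and 207 TPM in TL. Trpa1 and S100b had larger ratios in LS (5.72 and -4.45) than in TL (3.73 and -2.56), and Htr2a had a ratio near 0 there (-0.03 against -1.74).

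**Figure D5:**
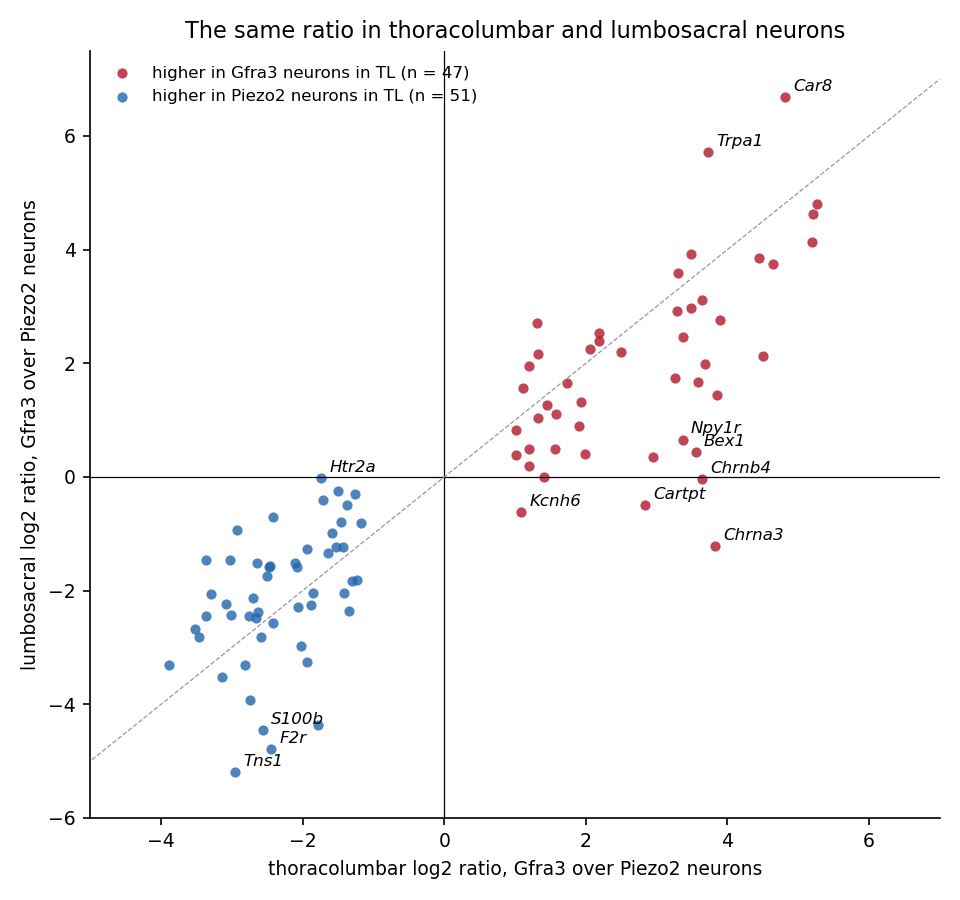
Log2 ratio of mean TPM + 1, Gfra3 over Piezo2 neurons, in TL (x axis) and LS (y axis) neurons for the 98 named and listed genes called in TL (points; red higher in Gfra3, blue higher in Piezo2 neurons); the dashed line marks equal ratios. Most points lie in the quadrants of equal sign, and Cartpt, Chrna3, Chrnb4 and Kcnh6 lie below 0 in LS.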

How the data were processed

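The authors sequenced single neurons by Smart-seq2, and per the submitters' processing notes used bcl2fastq 2.15.0.4, STAR 2.4.1 and featureCounts 1.4.4 with GRCm38.p3. They deposited log2 values, with 1 added, for 325 of 399 labelled neurons. Bath controls (13) and neurons without a column were not used here. Each value was taken off the log2 scale, 1 subtracted, and the neuron rescaled to the TPM total, which corrects for gene length but not for differences in RNA content. Whole reads were recovered from the values with GENCODE M21 exonic lengths where these fitted (65.0% of values above 0) and with lengths found from the values elsewhere. Totals therefore rest on the deposited values. Python 3.11.15, numpy 2.4.6, pandas 2.3.3 and scipy 1.17.1 were used, and the scripts were tested on simulated data.

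No animal is named, so neurons were not used as replicates. No doublet caller was run on the hand-picked neurons. The members and the 30 lists (374 genes) were chosen with earlier results of these data known. Named genes were the 15 called genes in each direction with the largest difference in mean log2(TPM + 1), leaving out Gfra3, Piezo2 and gene models without a descriptive symbol, and list members. Genes averaging under 5 TPM over the group means were not tested. Alternatives changed the thresholds, neurons, plates, scaling, pseudocount, filter and limit. Positions are those of GENCODE M21 on GRCm38. Some members of the lists are not reported here.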

Additional observations from a re-analysis of the deposited data

Results flagged for a closer look

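For 2 genes every TL plate and every LS plate had opposite directions. Chrna3, a nicotinic receptor subunit, had a log2 ratio of Gfra3 over Piezo2 neurons of 3.82 in TL (1.98 to 8.09 over plates) and -1.21 in LS (-2.19 to -0.29). Its mean was 249 and 16.7 TPM in the TL Gfra3 and Piezo2 neurons and 289.6 and 673 TPM in the LS ones. Kcnh6, a voltage-gated potassium channel subunit, had ratios of 1.08 in TL and -0.62 in LS, with means of 56.0 and 26.0 TPM and of 49.4 and 76.2 TPM. The difference between segments was not tested for these genes, which were the only such cases among the 98 named and listed genes called in TL.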

How the results depend on the processing

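The 98 named and listed genes called in TL had 2058 log2 ratios over 21 alternatives. Of these, 2003 moved by less than 1 SD of the plates, 55 moved by more and 0 changed sign. That SD was wide for some genes, at 2.29 for Gal. The genes were called for having 1 sign in every plate, so leaving out a plate could hardly reverse them. Under any alternative, 0 genes were called in the opposite direction. Of the alternatives, 4 changed only the filter, the limit or the request for every plate and could not move a ratio. Under these 4 the direction in which a count of called genes could move was fixed by construction. The counts higher in Gfra3 and Piezo2 neurons were 623 and 481 with the filter at 1 TPM and 695 and 493 with no filter. They were 122 and 96 with a 4-fold limit, and 408 and 481 without asking for the plates. All of these moved by over 1.5 times except the 408, against 366 in the main comparison. Elsewhere they ran from 351 to 502 and from 285 to 458. Leaving out each plate gave 358 to 423 and 300 to 417. Of the 98 genes, 9 came under the 2-fold limit in at least 1 alternative: Cacna1c, Cpe, Gabra3, Grin3a, Kcnh6, Pllp, Ret, Sstr4 and Tmem150c, at 0.84 or more in size. Ratios fell by over 1.5 times in 16 values, 11 of them with means of log values (Kcnk18 from -2.42 to -1.20), 3 with neurons under 9500 genes included (Gal from 4.64 to 2.94, Il13ra1 from 2.18 to 1.16 and Kcns1 from -3.37 to -2.08) and 2 without plate 6 (F2r from -2.45 to -1.56 and Npy1r from 3.37 to 2.61). Means of log values raised Gal to 8.47. Of 24 shares, 18 stayed within their interval with a limit of 1 TPM and 17 with 50 TPM. With reads thinned to 500000 per neuron, 23 did, but that share counted neurons with at least 5 reads, uncorrected for gene length. It therefore differs from the share at 10 TPM in its limit as well as in depth. Ntrk3 in Piezo2 neurons was at 28.6% by the 10 TPM limit and at 44.9% by the thinned count, which is not a change in depth alone. No paired analysis was possible because no animal, culture or replicate number shared by the groups is named. Plates 2 to 6 held both groups, and their within-plate ratios are part of the call rule. With no animal or culture named for a neuron, the spread between mice is not known.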

Other observations

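Several called genes outside the lists had related functions. They were picked after their values were seen and are given as values with no explanation. Auxiliary subunits of potassium channels were among the genes called higher in the TL Piezo2 neurons. They were Kcnab1, with means of 21.0 TPM in the Gfra3 and 96.1 TPM in the Piezo2 neurons (log2 -2.14), Kcnip1 (-2.19), Kcnip3 (-1.81) and Kcnip4 (-2.37). Kcnmb2, an auxiliary subunit of BK channels, was called higher in the Gfra3 neurons (40.9 and 5.72 TPM, log2 2.64). The 3 paralogues of synaptic vesicle protein 2 were called in different directions. Sv2a was higher in the Gfra3 neurons (61.8 and 16.7 TPM, log2 1.83), and Sv2b (12.3 and 69.4 TPM, log2 -2.41) and Sv2c (37.5 and 103 TPM, log2 -1.44) were higher in the Piezo2 neurons.

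Further single genes were called higher in the Gfra3 neurons. Th, the first enzyme of catecholamine synthesis, had means of 306 and 37.3 TPM (log2 3.00), Nos1, which makes nitric oxide, 86.2 and 12.3 TPM (log2 2.72), and Slc5a7, the choline transporter, 31.5 and 5.58 TPM (log2 2.30). In LS the ratio of Slc5a7 was -0.05 and that of Sv2a -0.11. Npffr2, a receptor for neuropeptide FF, had a mean of 33.4 TPM in the Gfra3 neurons and 0.0531 TPM in the Piezo2 neurons. Cckar, a cholecystokinin receptor, had a log2 ratio of 2.16 and Casr, the calcium-sensing receptor, one of 2.71. Among the genes called higher in the Piezo2 neurons were Hoxb5 (6.91 and 22.4 TPM, log2 -1.56) and Hoxb6 (2.88 and 13.5 TPM, log2 -1.90), which are known to be patterned along the spinal axis.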
